A study of Bos taurus with 30 samples.

Results

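The genes described here are the antioxidant and glutathione genes of day 15 bovine embryos. They were taken from the count table by symbol: glutathione peroxidases, peroxiredoxins with sulfiredoxin, superoxide dismutases, catalase, thioredoxins and their relatives, glutaredoxins, glutathione S-transferases of the soluble and membrane-bound classes, the enzymes that make and recycle glutathione, the regulators NFE2L2 and KEAP1, both heme oxygenases and NQO1. A gene also needed 10 or more counts in 3 or more libraries. Of the 35092 genes in the table, 68 matched by symbol and 64 passed this minimum. TXNDC8 was the member closest to it, with 10 or more counts in 3 libraries and a highest count of 14. GPX5, with 1 such library and a highest count of 13, was the gene closest below. GSTA5 and TXNDC2 stayed at or under 7 counts, and GPX8 was listed at 0 in each of the 30 libraries.

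The embryos were Holstein, and each was cut into the embryonic disc (ED), which forms the body of the fetus, and extra-embryonic membranes (EEM), which form the outer placenta and consist of trophoblast and hypoblast. IVP embryos were made in vitro from slaughterhouse oocytes with semen of 1 bull, which also served for the IVV embryos, were cultured without serum, went into a pair of recipient cows on day 7 and were flushed from the uterus on day 15. IVV embryos came from the insemination of a pair of superovulated donor cows and were flushed on day 15 as well. Non-stranded poly(A) libraries were made from 7 IVP and 9 IVV discs and from 6 IVP and 8 IVV membranes, and 13 embryos (5 IVP and 8 IVV) gave both tissues. All embryos thus shared a sire, IVV embryos a pair of dams and IVP embryos a pair of recipients, and only embryos in which a disc was seen were kept, so p-values here measure the spread between these embryos. The labels give no sex or stage of the single embryos. The paper reports that IVP embryos were shorter than IVV embryos and that a disc was found in a smaller share of them. The groups were thus not matched in size.

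Cells meet hydrogen peroxide and lipid peroxides with peroxidases of the glutathione and thioredoxin systems, which draw their reducing power from NADPH. Glutathione is made by glutamate-cysteine ligase (GCLC and GCLM) and glutathione synthetase (GSS), is recycled by glutathione reductase (GSR), and is joined to toxic and oxidized compounds by glutathione S-transferases. The transcription factor NRF2, encoded by NFE2L2 and held in check by KEAP1, raises many of these genes under oxidative stress.

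Library totals ran from 48713218 to 63037371 counts. The 6 epiblast genes summed to 62.5 to 367 CPM (counts scaled to the normalized library total, the unit of all levels here) in discs and to 12.3 to 42.7 CPM in membranes. NANOG ranged from 2.75 to 43.9 CPM in discs and from 0 to 0.195 CPM in membranes, whereas SALL4 was at 21.1 to 84.4 CPM and 9.28 to 40.6 CPM, so it made up most of the sum in the EEM. SOX2 was listed at 0 in each library. The summed level of 14 trophoblast genes was 13431 to 74543 CPM in the ED and 37271 to 87802 CPM in the EEM, so the disc pieces held much trophoblast RNA as well, and in such bulk samples fewer cells of a type and less RNA per cell cannot be told apart. The 3 maternal blood genes summed to at most 0.998 CPM and the 6 uterine genes to at most 2.64 CPM. XIST, the RNA that silences an X chromosome in females, was at or under 0.591 CPM in all 13 IVP libraries. In contrast, 7 of the 9 IVV discs held 44.9 to 151 CPM and 6 of the 8 IVV membranes 96.6 to 421 CPM. The IVV embryos VE3 and VE5 were the exceptions, at or under 0.215 CPM. IVP and IVV embryos thus differed in XIST as they did in procedure, and the values of VE3 and VE5 are given where a member changed. Each library was set against the other libraries of its group over all expressed genes. The median correlation was lowest for IVPF10 and IVP11 among the ED libraries, and for VE28 and VE19 among the EEM libraries. It ran from 0.865 to 0.906 in the IVP discs and from 0.909 to 0.963 in the IVV discs. IVPF10 was the lowest of the 7 IVP discs for 23 of the 57 members with counts in every library, and IVP11 the highest for 21.

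In the ED, 7 members were lower and 1 was higher in IVP than in IVV embryos, and all 7 lower members were glutathione S-transferases. These were GSTA1, GSTA3, GSTM3, GSTO1, GSTP1, GSTT1 and the membrane-bound MGST3, which are detoxifying enzymes of several structural classes. GSTA1 met the count minimum and the filter on low counts through IVV discs alone, so its direction followed from the filter and its call does not support a difference. GSTP1 also entered the test through the IVV discs, where it is high, and its call is a description. The higher member was TXNIP, which binds and inhibits thioredoxin. Genes of glutathione synthesis, the peroxidases, peroxiredoxins, superoxide dismutases, catalase and the NRF2 regulators did not pass the test. With p-values of edgeR's quasi-likelihood test adjusted by the Benjamini-Hochberg method over 15733 genes and a threshold of 0.05, 7 of the 61 tested members were lower (11.5%, against 4.95% of all genes tested) and 1 was higher (1.64%, against 1.40%). Without GSTA1 the lower members were 6 of 60 (10%), and among the 56 members that reached the filter's level of 0.185 CPM in every disc of both groups they were 5 (8.93%). The median log2 fold change of the tested members was -0.10, and that of all tested genes -0.0078. Among the 17 tested transferases 7 were lower, with a median of -0.57 (6 of 16 without GSTA1, median -0.51). Of the 12 transferases that reached the filter's level in every disc, 5 were lower (median -0.42). Among the 44 other tested members 0 were lower and 1 was higher, with a median of -0.0075. At an unadjusted p under 0.05 the members numbered 11 (18.0%), a share close to the 18.4% of all genes tested.

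MGST3, a membrane enzyme of leukotriene and glutathione metabolism, had the smallest p. Its level in IVP discs ran from 1.21 to 5.19 CPM with a median of 3.63, and in IVV discs from 3.9 to 14.7 CPM with a median of 10 CPM. All 7 IVP discs lay below the IVV median and 8 of the 9 IVV discs lay above every IVP disc. Its level was thus 2.96-fold lower in IVP discs (log2 fold change -1.57 with a standard error, SE, of 0.30, adjusted p = 0.00219). GSTA3, an alpha class transferase that also acts on steroid hormone precursors, ran from 2.62 to 14.7 CPM (median 6.8) in IVP and from 9.44 to 51.5 CPM (median 25.5) in IVV discs. Its 5 highest IVV discs lay above all IVP discs, and the log2 fold change was -1.77 (SE 0.39, adjusted p = 0.00611). GSTO1, an omega class enzyme that reduces dehydroascorbate, ran from 11.2 to 30.1 CPM (median 24.6) in IVP and from 31.3 to 67.4 CPM (median 39.6) in IVV discs. Its log2 fold change was -0.95 (SE 0.22, adjusted p = 0.011), the smallest in size of the 7. GSTO1 overlaps a further annotated gene, LOC112444463, and without strand their reads cannot be told apart.

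GSTT1, a theta class enzyme, ran from 1.47 to 5.64 CPM (median 4.38) in IVP and from 4.54 to 16.7 CPM (median 5.98) in IVV discs. The groups overlapped, with 7 of 9 IVV discs above all IVP discs (log2 fold change -1.25, SE 0.34, adjusted p = 0.0293). GSTM3, of the mu class, was held between 1.17 and 2.14 CPM in IVP discs but spread from 0.962 to 6.62 CPM in IVV discs, where 1 disc lay below every IVP disc and 7 lay above. Its log2 fold change was -1.18 (SE 0.35, adjusted p = 0.0423). This call was lost when any 1 of 12 of the 16 embryos was left out, with 2 surrogate variables (-1.20, adjusted p = 0.0649) and with halved counts (-1.11, adjusted p = 0.0549), and that of GSTT1 without IVP10, VE28, VE29 or VE5. Without the ED libraries of IVPF10 and IVP11 neither gene passed, at a log2 fold change of -1.25 for GSTM3 (adjusted p = 0.0715) and -1.17 for GSTT1 (0.0807). The other 5 did, among them GSTA1 and GSTP1, which entered the test through the IVV discs.

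GSTP1 and GSTA1 were near the lower limit of the data. The row named GSTP1 held 0 to 15 counts in IVP discs and 30 to 77 in IVV discs, or 0 to 0.251 CPM (median 0.134) against 0.488 to 1.18 CPM (median 0.676). The log2 fold change was -2.47 (SE 0.50, adjusted p = 0.00386). The filter's level was reached in 3 of 7 IVP and 9 of 9 IVV discs. The IVP discs alone would not have carried GSTP1 past it, so its p-value is given as a description. LOC281806, a further row of the table that carries GSTP1 as an older name, held far more reads. It ran from 59.7 to 292 CPM in IVP and from 83.6 to 261 CPM in IVV discs, with a log2 fold change of -0.21 (SE 0.18, adjusted p = 0.625), and did not pass the test. GSTA1, of the alpha class, held 0 to 7 counts in IVP and 3 to 42 in IVV discs (log2 fold change -2.60, SE 0.60, adjusted p = 0.00974), with 8 of the 9 IVV discs above all IVP discs. It reached the filter's level in 0 of 7 IVP and 7 of 9 IVV discs and so passed only through the group where it is high, and its p-value is given as a description. Counting can split reads between near-identical alpha, mu and pi class copies, so the values of single rows in these classes are uncertain. The mu class rows LOC783879 and LOC327709, which carry GSTM1 as an older name, are not members. Their log2 fold changes in the ED were 0.67 (adjusted p = 0.183) and -0.27 (adjusted p = 0.609), and neither passed.

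TXNIP moved the other way. It ran from 0.99 to 2.97 CPM (median 1.94) in IVP and from 0.299 to 1.1 CPM (median 0.802) in IVV discs, and 6 of the 7 IVP discs lay above all 9 IVV discs. The log2 fold change was 1.36 (SE 0.34, adjusted p = 0.0167), a level 2.57-fold higher. Without the ED libraries of IVPF10 and IVP11, which held the highest and the second-highest level, the log2 fold change was 1.05 (adjusted p = 0.0957).

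**Figure D1:**
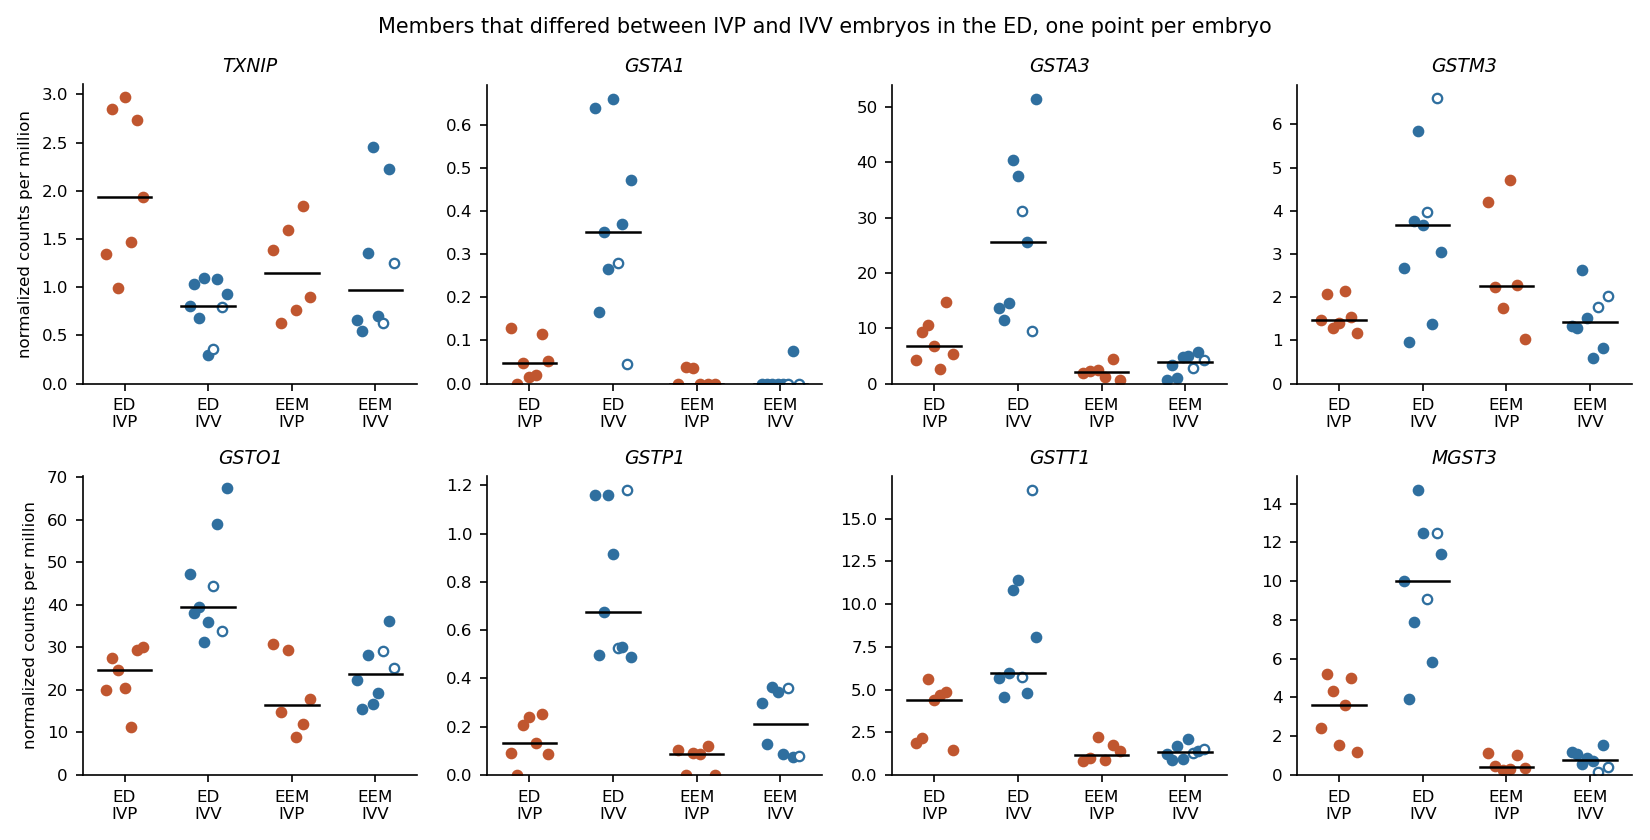
Normalized level in CPM (vertical axis, linear from 0, a separate scale per gene) of the 8 members called between procedures in the ED, among them GSTA1, which passed the filter through IVV discs alone, in all 30 libraries by tissue and procedure. Each point is 1 embryo, bars are group medians, and open points mark the IVV embryos VE3 and VE5, in which XIST was low. In the ED the orange IVP points lie low for 7 transferases and high for TXNIP, beside the blue IVV points.

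Because XIST differed with the procedure, the low-XIST IVV discs VE3 and VE5 were set beside the 7 IVP discs. All 7 IVP discs were below both of them for GSTM3, GSTO1, GSTP1, GSTT1 and MGST3, 5 were for GSTA3 and 3 for GSTA1, and all 7 were above both for TXNIP. For MGST3 VE3 held 9.09 CPM and VE5 12.5 CPM, against at most 5.19 CPM in IVP. With XIST as a further covariate, GSTM3, GSTT1 and MGST3 passed the test, as did GSTP1, which entered it through the IVV discs where it is high. The others did not, with log2 fold changes of -1.64 for GSTA1 (adjusted p = 0.288), -1.45 for GSTA3 (0.103), -0.73 for GSTO1 (0.237) and 1.66 for TXNIP (0.116), the last larger than without the covariate.

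Primitive streak markers were lower in the same discs as the transferases, and epiblast markers were divided. All 6 primitive streak and mesoderm genes tested in the ED were lower in IVP discs, and their summed level was 6.88 to 15.8 CPM in IVP and 16.1 to 125 CPM in IVV discs. Of the 4 tested epiblast genes, POU5F1 was lower (log2 fold change -1.72, SE 0.36, adjusted p = 0.00479), and NANOG (-1.34, adjusted p = 0.0517), SALL4 (-0.28, adjusted p = 0.504) and GDF3 (0.90, adjusted p = 0.468) did not pass. The list summed to 62.5 to 134.6 CPM in IVP and 74.5 to 367 CPM in IVV discs. None of the 14 trophoblast genes passed (smallest adjusted p = 0.296), and 1 of the 11 tested hypoblast genes was lower. The part of these cell types in the transferase values was not tested.

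Neither regulator passed the test in either tissue. NFE2L2, which encodes NRF2, ran from 48.0 to 193 CPM in IVP and from 74.4 to 183 CPM in IVV discs, with a log2 fold change of 0.14 (95% interval -0.36 to 0.64). KEAP1, its inhibitor, ran from 35.1 to 149 CPM and from 34.7 to 96.7 CPM (0.11, interval -0.34 to 0.56). Both groups overlapped for either gene, and the intervals leave out a 2-fold difference.

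Of the enzymes of glutathione synthesis and recycling, 0 of 4 passed the test in the ED. The log2 fold change was -0.22 for GCLC, the catalytic subunit of the rate-limiting ligase, 0.025 for its modifier subunit GCLM, 0.078 for GSS and 0.20 for GSR, and each 95% interval lay inside 2-fold in both directions. The level of GCLC, for example, was 57.6 to 226 CPM in IVP and 76.2 to 158 CPM in IVV discs, so that the IVV range lay inside the IVP range.

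None of the peroxide-removing enzymes passed the test in the ED. Log2 fold changes of the 5 tested glutathione peroxidases ran from -0.15 for GPX7, an enzyme of the endoplasmic reticulum, to 0.33 for GPX2, and those of PRDX1 to PRDX6 from -0.25 to -0.034. GPX4, which reduces lipid peroxides in membranes and guards against ferroptosis, was at 117 to 658 CPM in IVP and 163 to 357 CPM in IVV discs (log2 fold change 0.016, 95% interval -0.34 to 0.37). PRDX1, a cytosolic peroxiredoxin, was at 828.7 to 4904 CPM (median 3123) and 1984 to 4443 CPM (median 2923), a difference of -0.034 (interval -0.43 to 0.36). SRXN1, which repairs overoxidized peroxiredoxins, had a wider interval (0.16, -0.62 to 0.94). SOD1 in the cytosol, SOD2 in mitochondria and CAT in peroxisomes had log2 fold changes of -0.11, -0.13 and 0.21. All 15 genes of these groups tested in the ED had an interval inside 2-fold.

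Among the thioredoxins TXNIP alone passed in the ED. TXN, the cytosolic electron donor, differed by 0.025 (95% interval -0.31 to 0.36), mitochondrial TXN2 by 0.16, and the reductases TXNRD1 and TXNRD2 by 0.13 and 0.032 on the log2 scale. TXNRD3, a thioredoxin-glutathione reductase best known from testis, came closest among members that missed the threshold, at 1.0 to 9.89 CPM (median 4.77) in IVP and 3.8 to 10.5 CPM (median 7.8) in IVV discs (log2 fold change -1.15, SE 0.37, adjusted p = 0.0618). It was called lower by DESeq2, with no filter on low counts and in 6 of the 16 fits that left out an embryo, and with the other settings tried its adjusted p reached up to 0.357. Glutaredoxins ran from -0.15 to 0.32, with the upper end held by GLRX (72.3 to 597 CPM in IVP and 133 to 300 CPM in IVV discs). The 10 tested thioredoxin-like proteins ran from -0.32 to 0.31.

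Of the transferases that did not pass in the ED, MGST1 was at -0.15 (95% interval -0.78 to 0.48) and MGST2 at -0.35, and the 8 soluble ones ran from -0.60 to 1.51. The upper end was GSTO2, at 0 to 25 counts a library in IVP and 0 to 13 in IVV discs. GSTO2 reached the filter's level in 5 of 7 IVP and 2 of 9 IVV discs, and was called higher without IVP10. SOD3, TXNDC8 and GPX6 had too few counts for the filter in every comparison. GPX6 met the count minimum through 4 IVV discs alone, so its tissue difference, called higher in the ED with no filter on low counts, is not independent of the choice of members. SOD3, the secreted dismutase, held 0 to 18 counts a library, TXNDC8 0 to 14, and GPX6 0 to 4 counts in IVP and 0 to 23 in IVV discs with at most 2 in the EEM.

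**Figure D2:**
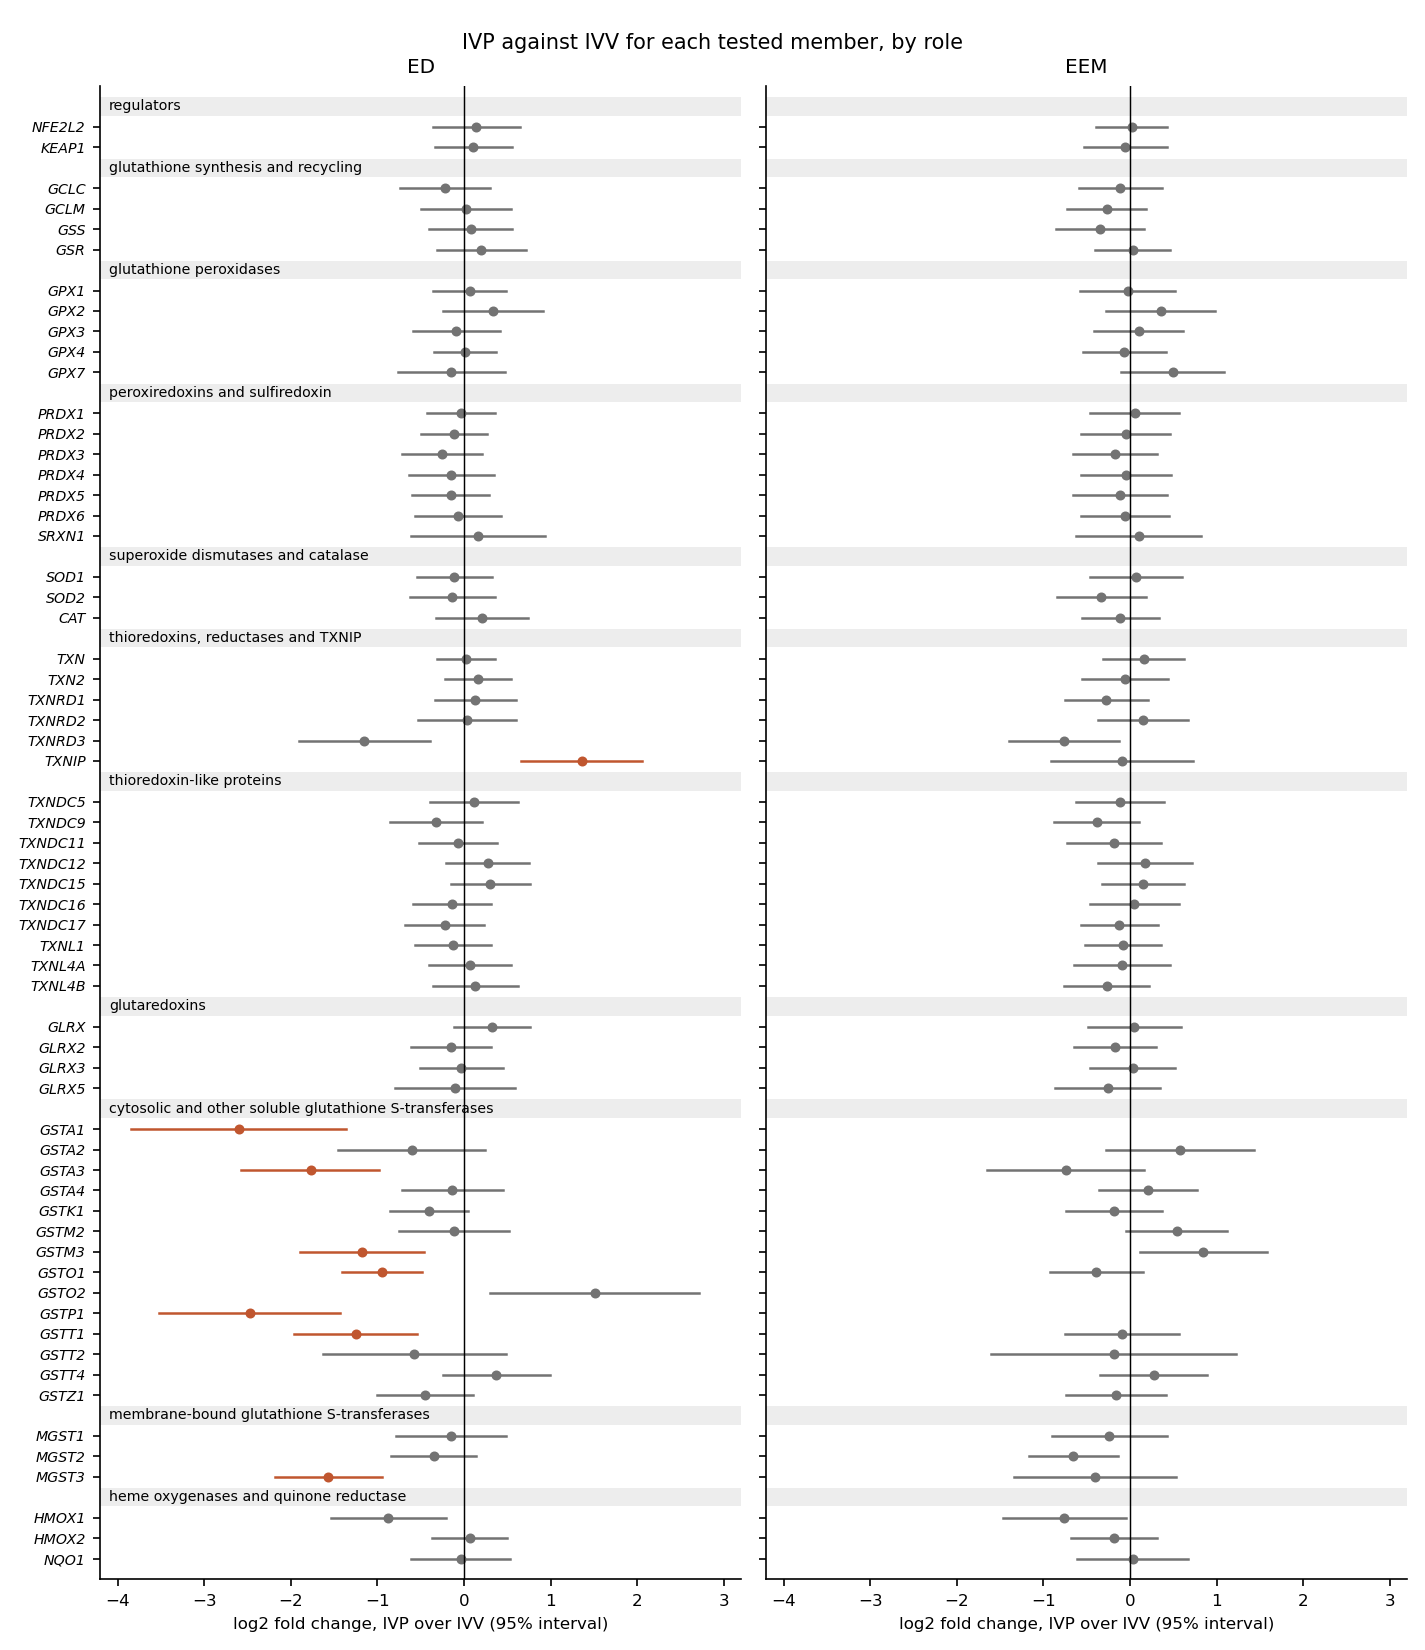
Log2 fold change of IVP over IVV embryos with its 95% interval (horizontal axis) for each tested member in the ED (left, 61 members) and the EEM (right, 58), grouped by role. Orange marks an adjusted p under 0.05. The 8 orange members are all in the left panel, and most intervals of the upper roles are centred near 0 in both.

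In the EEM, 0 of 58 tested members were lower and 0 were higher in IVP embryos (of all 14718 genes tested, 1.52% were lower and 2.29% higher), and the smallest adjusted p was 0.179. At an unadjusted p under 0.05 there were 4 members (6.90%, against 13.7% of all genes tested), and DESeq2 on the same model also called 0. Leaving out VE19 gave 1 lower member, GSTA3, and a fit with XIST as a covariate gave 1 higher member, GSTT2. The median log2 fold change was -0.086, against 0.0038 over all tested genes. Intervals lay inside 2-fold for 41 of the 44 members outside the transferases, but for only 7 of the 14 transferases tested, and for the other 7 a 2-fold difference lay within the interval.

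In the EEM the regulators ran from -0.053 to 0.020 on the log2 scale, the enzymes of glutathione synthesis and recycling from -0.35 to 0.032, the glutathione peroxidases from -0.063 to 0.50, the peroxiredoxins with SRXN1 from -0.17 to 0.099, and SOD1, SOD2 and CAT from -0.33 to 0.069. PRDX1 was at 2598 to 5572 CPM (median 3717) in IVP and 1872 to 7633 CPM (median 3576) in IVV membranes, and GPX4 at 215 to 558 CPM (median 339) and 213 to 624.8 CPM (median 353). CAT ran from 281 to 595 CPM and from 172 to 778 CPM with medians of 437 and 441. For each of these the groups overlapped. The 4 members with an unadjusted p under 0.05, fewer than the share of all genes, were TXNRD3 (log2 fold change -0.76), HMOX1 (-0.76), MGST2 (-0.65), a leukotriene C4 synthase relative, and GSTM3 (0.85).

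The transferases called in the ED were also read in the EEM. MGST3 ran from 0.235 to 1.12 CPM in IVP and from 0.162 to 1.53 CPM in IVV membranes (log2 fold change -0.41, 95% interval -1.34 to 0.53). GSTA3 ran from 0.563 to 4.45 CPM and from 0.701 to 5.61 CPM (-0.74, interval -1.65 to 0.17), and GSTT1 from 0.795 to 2.24 CPM and from 0.873 to 2.12 CPM (-0.094, interval -0.75 to 0.56). GSTO1 was at 9.05 to 30.9 CPM and 15.5 to 36.3 CPM (-0.39, interval -0.93 to 0.15). TXNIP ran from 0.627 to 1.84 CPM and from 0.55 to 2.45 CPM (-0.089, interval -0.91 to 0.73). Groups overlapped for each of these genes, and GSTP1 and GSTA1 had too few counts in the EEM for the test.

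GSTM3 was the only member to pass the test of whether the difference between IVP and IVV embryos itself differed between the tissues. Its level was 1.02 to 4.7 CPM (median 2.26) in IVP and 0.591 to 2.62 CPM (median 1.42) in IVV membranes, where the medians stood in the reverse order of the disc. In the 13 embryos with both tissues, the interaction of tissue and procedure was -1.95 on the log2 scale (SE 0.44, adjusted p = 0.0367), the 1 lower call among 61 tested members (of 16784 genes, 0.918% were lower and 0.107% higher). It was lost when any 1 of 8 of the 13 embryos was left out (values from -2.17 to -1.72 over the 13 such fits), and without IVP11, VE19 and VE28, at -2.01 (adjusted p = 0.114). The interaction was -1.17 for GSTA3 (adjusted p = 0.282), -0.97 for GSTT1 (0.281), -0.81 for MGST3 (0.784), -0.53 for GSTO1 (0.558), -1.37 for GSTP1 (0.567), -3.48 for GSTA1 (0.491) and 1.13 for TXNIP (0.411). A difference between ED and EEM in the response to the procedure was therefore not detected for these 7, and the interval for GSTA1, from -6.99 to 0.030, was the widest.

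Both tissues of the same embryo were then compared, IVP and IVV together, to see how the members divide between disc and membranes. Of 58 tested members, 13 were lower in the ED than in the EEM (22.4%, against 8.16% of the 14898 genes tested) and 7 were higher (12.1%, against 12.8%). The higher ones were transferases apart from GPX7, and the lower ones were enzymes of glutathione synthesis, peroxide removal and the thioredoxin system with its relatives, the glutaredoxin GLRX2, the spliceosome protein TXNL4B and MGST1. Differences were large for 4 of the transferases, at 3.19-fold or more, with GSTP1 among them near the lower limit of the data. They were small for the rest, at most 1.56-fold in either direction. The median log2 fold change of the members was -0.14, and that of all tested genes -0.085. Of 14 tested transferases 6 were higher and 1 lower (median 0.45), and of the 44 others 1 was higher and 12 were lower (median -0.22). Among the 55 members that reached the filter's level of 0.183 CPM in every disc and membrane, 13 were lower (23.6%) and 5 higher (9.09%). Of the 11 transferases among these, 4 were higher and 1 lower (median 0.43). Of the mu class rows outside the members, LOC783879 was lower in the ED (-0.80, adjusted p = 0.00164) and LOC327709 did not pass (0.24, adjusted p = 0.387).

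MGST3 was 10.2-fold higher in the ED (log2 fold change 3.35, SE 0.33, adjusted p = 2.95e-07), GSTA3 5.23-fold (2.39, SE 0.25, adjusted p = 7.58e-07) and GSTT1 4.32-fold (2.11, SE 0.21, adjusted p = 2.95e-07). For each of these the disc exceeded the membranes in 13 of 13 embryos, IVP and IVV alike. GSTP1 was 3.19-fold higher (1.67, SE 0.34, adjusted p = 0.00145) in 11 of 13 embryos. It reached the filter's level in 10 of 13 discs and 4 of 13 membranes. The membranes alone would not have carried it past the filter, and its p-value is a description. The abundant row LOC281806, with the older name GSTP1, was at 0.198 (SE 0.092, adjusted p = 0.137) and did not pass. GSTO1 followed with 0.64 (SE 0.15), in all 8 IVV but 3 of 5 IVP embryos. GSTA4, an enzyme for the lipid peroxidation product 4-hydroxynonenal, was higher by 0.43 (12 of 13 embryos), and GPX7 by 0.46 (11 of 13). These fold changes rest on the same disc libraries as the comparison of IVP with IVV discs, so the fact that GSTA3, GSTO1, GSTP1, GSTT1 and MGST3 appear in both is given without a test. All 4 tested epiblast genes were higher in the ED, POU5F1 by 5.40 on the log2 scale. So were 4 of the 5 tested primitive streak and mesoderm genes and 6 of the 11 tested hypoblast genes (median 0.455), and no gene of these lists was lower. The summed trophoblast level had overlapping ranges in the tissues. The part of these cell types in the higher transferases was not tested.

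Among the members lower in the ED, GPX3, the secreted plasma-type peroxidase, was lower in 13 of 13 embryos (log2 fold change -0.51, SE 0.12, adjusted p = 0.00394). Its level was 27.4 to 85.5 CPM in IVP and 35.8 to 61.9 CPM in IVV discs, against 34.5 to 115 CPM and 41.5 to 83.1 CPM in membranes. TXNDC9, a thioredoxin-like protein, was also lower in 13 of 13 embryos (-0.37, SE 0.095, adjusted p = 0.00805). MGST1, which protects membranes from lipid peroxides, was lower in 12 of 13 embryos (log2 fold change -0.56, SE 0.12, adjusted p = 0.00259). GCLM (-0.47, SE 0.11) was lower in 11 of 13 and GCLC (-0.34, SE 0.11) in 10 of 13.

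The peroxidases GPX4 (-0.35) and PRDX5 (-0.43) and the sulfiredoxin SRXN1 (-0.59) were lower in 12 of 13 embryos each, and PRDX1 (-0.29), TXN (-0.37) and GLRX2 (-0.30), a mitochondrial glutaredoxin, in 11 of 13. TXNDC11 (-0.38) was lower in 12 of 13, and the spliceosome protein TXNL4B (-0.45) in 10 of 13, all 8 IVV embryos among them. These ranges of single libraries overlapped widely between tissues, and the difference appeared within embryos. Without the embryo as a block, 0 members were lower and 5 were higher. Without IVP11, VE19 and VE28, 13 were lower and 6 higher. In that fit GPX7, PRDX1 and TXNDC11 did not pass, and CAT and GLRX were called lower. Without IVP11 alone, CAT, GLRX, GSR, HMOX2 and TXNDC5 were called lower too. Calls of GCLC, GPX7, PRDX1, SRXN1, TXNDC11, GLRX2 and TXNL4B each depended on single embryos, being lost in 1 to 8 of the 13 fits that left out an embryo, and without VE5 the lower members numbered 7. For the other enzymes the test was not passed with all embryos. GPX1, a cytosolic peroxidase, was at -0.14 on the log2 scale (95% interval -0.36 to 0.092) and CAT at -0.26 (interval -0.53 to 0.0094). PRDX2, PRDX3, PRDX4 and PRDX6 ran from -0.18 to -0.054, SOD1 and SOD2 were at -0.11 and -0.10, and NFE2L2 and KEAP1 at -0.079 and -0.073. All 44 members outside the transferases had an interval inside 2-fold. Of the trophoblast genes 5 were lower in the ED too, by up to 0.775 on the log2 scale (median of the 14 genes -0.32), and the part of the share of trophoblast in the lower members was not tested.

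**Figure D3:**
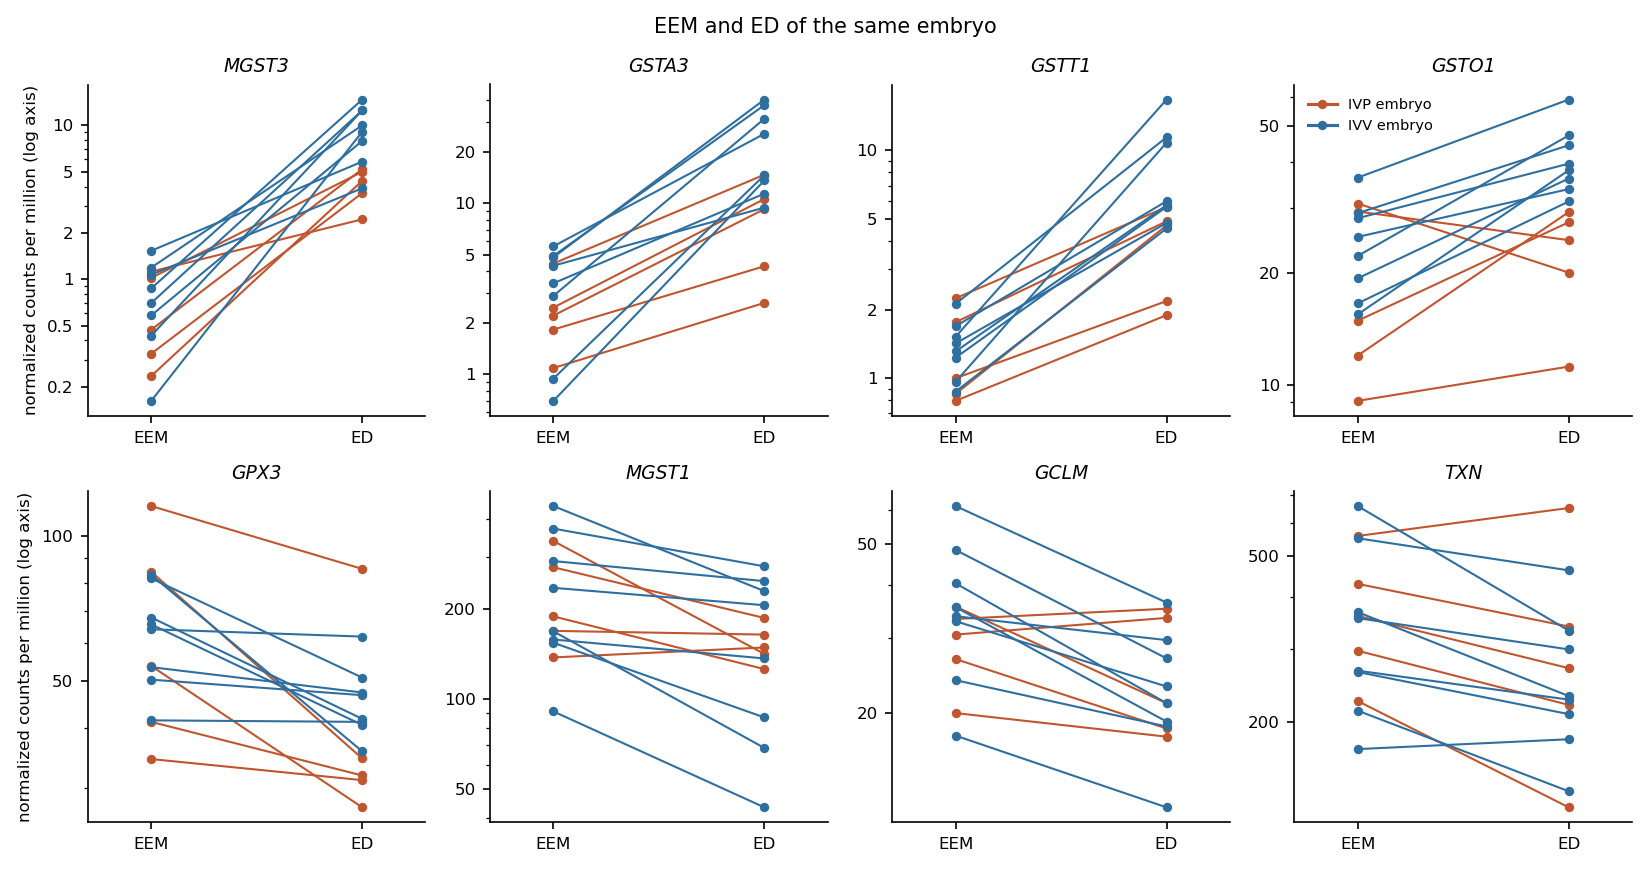
Normalized level in CPM (vertical axis, log scale, separate for each gene) in the EEM and ED of the 13 embryos with both tissues, joined by a line per embryo (orange IVP, blue IVV). MGST3, GSTA3 and GSTT1 rise toward the ED in all 13 embryos and GSTO1 in 11, and GPX3 falls in all 13 and MGST1 in 12.

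HMOX1 and NQO1 are classical NRF2 targets, and neither they nor HMOX2 passed the test in any comparison with all embryos. HMOX1 was called lower in IVP discs without IVP11, VE3 or VE4 (3 of 16 such fits). Over the 16 fits its log2 fold change ran from -1.27 to -0.56, and with XIST as a covariate it was -0.26 (adjusted p = 0.981). HMOX2 was called lower in the ED than in the EEM without IVP11 (1 of 13). HMOX1, the inducible enzyme that degrades heme, varied widely between embryos. It ran from 58.7 to 232 CPM (median 104) in IVP and from 61.1 to 597 CPM (median 143) in IVV discs, and from 99.9 to 273 CPM (median 141) and 64.3 to 1813 CPM (median 232) in membranes. VE19 and VE29 were the highest embryos in both tissues, with 374 and 597 CPM in the disc and 1813 and 979 CPM in the membranes. The groups overlapped in both tissues, with log2 fold changes of -0.87 (SE 0.32, adjusted p = 0.119) in the ED and -0.76 (SE 0.35, adjusted p = 0.31) in the EEM. HMOX2, the constitutive form, differed by 0.068 and -0.19, and NQO1, a quinone reductase, by -0.038 (95% interval -0.61 to 0.54) and 0.031 (interval -0.61 to 0.67).

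Partner genes of the pathway were taken from a list of 68, of which 66 were in the table. In the ED, 6 of 63 tested partners were lower in IVP embryos and 0 were higher (4.95% and 1.40% of all genes). The 3 with the smallest p were MT1A, a metallothionein that binds zinc and copper, CYBA, a subunit of the superoxide-producing NADPH oxidase, and SESN3, a sestrin. MT1A ran from 0.368 to 2.26 CPM in IVP and from 2.12 to 10.5 CPM in IVV discs, with 8 of 9 IVV discs above all IVP discs (log2 fold change -1.96, SE 0.37, adjusted p = 0.00198). CYBA was at -1.67 (SE 0.39, adjusted p = 0.00974) and SESN3 at -1.50 (SE 0.35, adjusted p = 0.0109), and the latter did not pass without the ED libraries of IVPF10 and IVP11 (-1.29, adjusted p = 0.0573). All 7 IVP discs lay below both low-XIST IVV discs for each of these 3 genes. None of the 9 tested genes of NADPH supply and none of the 12 of cystine uptake and glutathione turnover passed in the ED.

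MT1A was also the single partner of 60 tested that passed in the EEM. It reached the level of the filter in 0 of 6 IVP and 6 of 8 IVV membranes, so it was tested through the IVV membranes alone and its p-value is a description. All 6 IVP membranes held at most 1 count, whereas IVV membranes held 0 to 42.1 CPM (median 8.5), with VE3 and VE4 at 0. Against a floor of 3 counts a library the mean of the IVV membranes makes the IVP level at least 214-fold lower (adjusted p = 0.000155), with 6 of 8 IVV embryos above all IVP embryos. Without VE29, the highest, the bound is 142-fold. The gene had enough counts for the test in 8 of the 14 fits that left out an embryo. Metallothionein genes are similar to each other, so reads may be split between copies. MT2A, chosen after its values were seen, had a like spread in IVV membranes, from 0.018 to 119 CPM with VE3, VE4 and VE5 at or under 0.0586 CPM, and 0.651 to 10.7 CPM in IVP membranes (log2 fold change -3.34, SE 1.02, adjusted p = 0.0684, and passed in 5 of the 14 fits that left out an embryo). In the discs it was at 1.86 to 17.5 CPM in IVP and 4.72 to 91.0 CPM in IVV embryos (-2.12, SE 0.58, adjusted p = 0.0272), a call lost without IVP10, IVPF13 or VE29 and with XIST as a covariate (-1.46, adjusted p = 0.439).

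**Figure D4:**
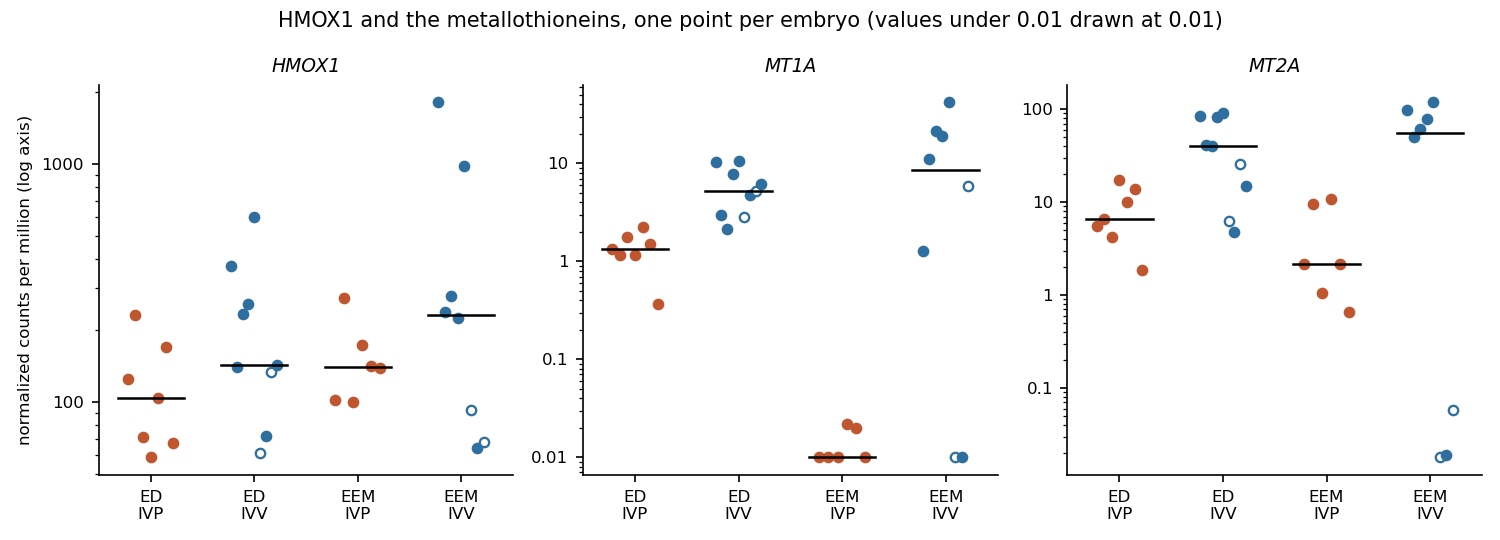
Normalized level in CPM (vertical axis, log scale, values under 0.01 drawn at 0.01) of HMOX1, MT1A and MT2A by tissue and procedure. Each point is 1 embryo, bars are group medians, and open points mark the IVV embryos VE3 and VE5 with low XIST. The 6 IVP membranes sit at the bottom for MT1A, and IVV embryos spread most for all 3 genes in the EEM.

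Between the tissues, 9 of 62 tested partners were higher and 8 lower in the ED (12.8% and 8.16% of all genes). Among the 54 partners that reached the filter's level of 0.183 CPM in every disc and membrane, 5 were higher (9.26%) and 8 lower (14.8%). SESN3 (2.38, SE 0.28, adjusted p = 2.36e-06) and CYBA (3.03, SE 0.43, adjusted p = 2.5e-05) were higher, as was ME1, a cytosolic source of NADPH (1.08, SE 0.16, adjusted p = 3.87e-05). SESN3 reached the filter's level in 13 of 13 discs and 8 of 13 membranes, and CYBA in 13 of 13 and 9 of 13. The membranes alone would not have carried these 2 genes past the filter, and their p-values are descriptions. GGCT, an enzyme of glutathione breakdown (-0.45, SE 0.086), the NRF2 partner MAFG (-0.43, SE 0.099) and OSGIN1 (-0.45, SE 0.10) were the lower genes with the smallest p. The interaction passed for CYBA alone among 63 partners (-2.80, SE 0.54, adjusted p = 0.0115). Its level in the EEM was 0.253 to 0.982 CPM in IVP and 0.0809 to 0.531 CPM in IVV embryos, the reverse order of the disc, where it was 0.315 to 2.13 CPM and 1.86 to 6.77 CPM. Without IVP11, VE19 and VE28 this interaction was -2.99 (adjusted p = 0.0558).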

How the data were processed

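Poly(A) RNA of 30 ED and EEM libraries was analysed as raw counts per gene, as deposited. The authors filtered reads with SOAPnuke, aligned them with STAR 2.7.0b to ARS-UCD1.3 and counted them with featureCounts of Subread 2.0.3 by Entrez gene ID, and the submitters' processing notes also name FastQC 0.11.9 and Trimmomatic. Reads were not stranded, so overlapping genes share reads: by the ARS-UCD2.0 annotation of RefSeq, which also gave the symbols (31630 of 35092 IDs, 99.5% of counts), GSTO1, GSTO2, GLRX, GLRX2, KEAP1, MGST2, PRDX6, TXN, TXNDC11, TXNRD1 and TXNRD3 overlap another gene among the members named. All 64 members matched by gene ID. Even small counts exceeded odd ones, as when each mate is counted.

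IVP and IVV were compared within each tissue with edgeR 4.0.16 in R 4.3.3 (TMM, filterByExpr with at least 10 counts, quasi-likelihood test, Benjamini-Hochberg adjustment at 0.05 over all genes) and 1 surrogate variable from sva 3.50.0. The study controlled for morphology with sva without naming a number. ED and EEM, and the interaction, were tested in 13 embryos with embryo as a block, which pairs tissues cut from the same embryo. CPM shown use TMM factors over all libraries. Intervals are 95%, and the floor is 3 counts per library, covering counting error only. The scripts were tested on simulated data.

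Named members were a fixed list of core genes plus each member that passed. Partners were the 3 with the smallest p per comparison and direction. Members and lists were chosen with earlier results of these data known. Alternatives were 0 or 2 surrogate variables, the letter in the sample titles (meaning not given) as a term, XIST as a covariate, DESeq2 1.42.0, RLE size factors, no filter on low counts, halved counts, no block and leaving out embryos. The fits without IVPF10 and IVP11, without VE19 and VE28, and without IVP11, VE19 and VE28 were chosen after seeing the data, as were the counts without members that passed the filter through 1 group and the MT1A bound without VE29. Sequences, methylation and levels per transcript length were not analysed here.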

Additional observations from a re-analysis of the deposited data

Results flagged for a closer look

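In 12 of 180 sets of libraries of a member in a group, the highest or the lowest library stood apart from the others by Dixon's criterion, which chance meets in about 1 in 20 groups. In the IVP discs the library of IVP11 was the highest for GPX4 at 657.9 CPM (nearest 349.3), TXN at 652.0 CPM (nearest 339.0), TXN2 at 306.4 CPM (nearest 159.0) and HMOX2 at 647.5 CPM (nearest 303.6). The library of IVPF10 was the lowest for CAT at 100.9 CPM (nearest 362.3). These are the IVP discs with the lowest median correlation with their group.

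In the IVV discs, PRDX6 stood apart at 681.9 CPM in VE19 (nearest 394.7), TXNRD2 at 26.8 CPM in VE24 (nearest 16.2) and GSS at 20.3 CPM in VE28 (nearest 36.4). In the IVV membranes, VE29 was highest for GSS at 97.3 CPM (nearest 56.4) and HMOX2 at 650.3 CPM (nearest 419.0), VE28 was lowest for KEAP1 at 41.0 CPM (nearest 78.1), and GSTA1 was at 0.0755 CPM in VE4 and at 0 in the others. Of the genes in these sets, GSTA1 alone passed the test between procedures in the ED.

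For GSTM3 the interaction of tissue and procedure was -1.95 on the log2 scale (edgeR's quasi-likelihood test, adjusted p = 0.0367). This call was lost in 8 of the 13 fits that left out an embryo, and without IVP11, VE19 and VE28 (adjusted p = 0.114).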

How the results depend on the processing

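In the ED, 4 to 8 members were lower when 1 embryo was left out (7 with all, 4 without VE28 and 4 without VE29). In the same fits 1 to 2 were higher, with GSTO2 beside TXNIP without IVP10. With XIST as a covariate 4 were lower and 0 higher, and without IVPF10 and IVP11 0 were higher. MGST3 (adjusted p up to 0.00713) passed under every alternative run. GSTP1 did too (up to 0.0142), but it entered the test through the IVV discs, where it is high, so this is no sign of stability. GSTA1 had enough counts for the test in 9 of the 16 fits that left out an embryo. In the EEM, 0 to 1 members were lower with 1 embryo left out, and with XIST 1 was higher. Over all genes the ED gave 778 lower and 220 higher calls, against 599 and 49 with XIST, 1101 and 411 with DESeq2, 1388 and 458 without a filter on low counts, and 499 to 951 and 140 to 297 with 1 embryo left out. The EEM gave 224 lower and 337 higher calls, against 192 and 184 with no surrogate variable, 169 and 164 with the title letter, 91 and 55 with XIST, and 447 and 764 without a filter.

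The embryo block pairs pieces of the same embryo. With no replicate block, 0 members were lower in the ED than in the EEM (13 with it) and 5 were higher (7 with it), and over all genes 87 were lower (1215 with it). Over all genes 727 to 1718 were lower with 1 embryo left out and 710 without IVP11, VE19 and VE28. Leaving out 1 embryo gave 7 to 17 lower and 6 to 8 higher. The interaction called 0 to 1 members with 1 embryo left out and 0 without IVP11, VE19 and VE28, and without the block it still called GSTM3. Its all-gene calls were 154 lower and 18 higher, against 196 and 33 without the block, 390 and 45 with DESeq2, 304 and 52 without a filter, 141 and 9 with halved counts, 58 and 9 without IVP11, VE19 and VE28, and 87 to 193 and 11 to 21 with 1 embryo left out. The cause of these shifts was not tested, and no called member reversed its direction in an alternative that tested it. Of the partners followed through the alternatives (MT1A, MT2A, CYBA, SESN3, ME1, GGCT, MAFG and OSGIN1), MT2A in the EEM reversed, to 2.5 with XIST (adjusted p = 0.969, no call).

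At 48713218 counts or more a library, GSTA1, GSTP1, GPX6, SOD3 and TXNDC8 rested on few counts.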
